A study of Mus musculus with 6 samples.

Results

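The cytosolic heat shock chaperones of the mouse heart were described here through 10 genes. They were the inducible HSP70 genes Hspa1a and Hspa1b, the constitutive HSP70 gene Hspa8, the HSP110 family genes Hspa4 and Hsph1, the HSP90 gene Hsp90aa1, the co-chaperone genes Dnajb1 and Bag3, and the small heat shock protein genes Hspb1 and Cryab. A probe set, which is a group of short probes on the array that reads 1 transcript, was included when the platform annotation paired it with exactly 1 of these genes. This gave 27 probe sets of 34945 that had 1 gene, and the 10 genes were among 18193. All 10 genes had at least 1 probe set.

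The series compared heart tissue of C57BL/6 mice overexpressing hAT1R, the human type 1 angiotensin II receptor, with heart tissue of non-transgenic C57BL/6 mice. Each group had 3 arrays, each made from 6 ug of total heart RNA. The animals were stated to be matched for age and sex, but no age was given. The labels name neither the promoter that drives the transgene nor the founder line, and they do not say whether each array came from 1 animal, so the p-values measure only the spread between these arrays. Neither group was stated to have received any other treatment.

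A name typed into each instrument record was that of the other group on 6 of the 6 arrays. Groups were taken from the sample titles, the first group is therefore called labelled transgenic, and every direction below rests on the titles. Cardiomyocyte markers were measured on all arrays, with 16 of 16 genes above the brightness filter. Median log2 values of the arrays lay between 3.25 and 3.31, and pairs of arrays correlated at 0.9952 to 0.9967 within groups and 0.9933 to 0.9961 between groups. The female transcript Xist was high on labelled transgenic arrays 1 and 3 and non-transgenic array 2, at log2 9.48, 9.48 and 9.69, and low on the other arrays, at 2.49 to 3.01. The labelled transgenic arrays therefore included 1 with a male pattern, array 2, and the non-transgenic arrays included 2, arrays 1 and 3. These patterns were not balanced between the groups, although the animals were stated to be matched for sex. Fluidics station 2 processed 4 arrays, namely non-transgenic array 1 and the whole labelled transgenic group, and station 3 processed non-transgenic arrays 2 and 3. In the scan records the non-transgenic group came last, so scan order and group cannot be told apart.

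Chaperones of the HSP70 family bind unfolded stretches of proteins and release them in a cycle driven by ATP. J-domain proteins such as Dnajb1 start the cycle by stimulating ATP hydrolysis, and exchange factors such as Hsph1 and Bag3 end it by releasing ADP. HSP90 acts later, on proteins near their native fold, and small heat shock proteins such as Hspb1 and Cryab hold unfolded proteins without using ATP. Under heat or other protein-damaging stress the transcription factor HSF1 binds heat shock elements, which are repeats of a short unit in alternating orientation, and induces many of these genes. In heart muscle Cryab, Hspb1 and Bag3 are abundant at the Z-disc, and mutations of BAG3 and CRYAB cause cardiomyopathy and myofibrillar myopathy in people.

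No chaperone probe set passed the test over the whole table, but most lay higher in the labelled transgenic hearts. Of the 27 probe sets, 16 had all 3 labelled transgenic values above all 3 non-transgenic ones, and the other 11 overlapped. The same separation was seen for 7.21% of all 45037 probe sets. Without any filter, 25 of the 27 had a difference above 0, against 65.2% of all probe sets, and 15 were higher at an unadjusted p under 0.05, against 5.34%. Probe sets of a gene share its RNA, so these counts do not come from 27 independent measurements. In bulk tissue, more cells of a type and more RNA per cell cannot be told apart.

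The probe sets tested had a mean over the 6 arrays above the median of all probe sets, log2 3.285. This left 23 chaperone probe sets among 22518, with at least 1 for each of the 10 genes. The 4 below it were 1 of Hspa4, 1 of Cryab and 2 of Hsp90aa1. Of the 23, none had an adjusted p under 0.05 in limma, where 0.218% of all probe sets tested did, and the lowest adjusted p was 0.078. At an unadjusted p under 0.05, 15 of the 23 were higher, which is 65.2% against 9.41% of all probe sets tested. Non-overlapping values with the labelled transgenic arrays higher were found for 16 of the 23, or 69.6%, against 13.2% overall. A difference above 0 was found for 21 of the 23, against 52.5% of all probe sets tested. The median log2 difference was 0.60 for the 23 and 0.010 over all probe sets tested. With 1 probe set a gene, the one with the highest mean, 10 of 10 genes had a difference above 0, against 52.4% of 11016 genes. None passed the adjusted threshold, which 0.563% of all genes did, and 8 were higher at an unadjusted p under 0.05, against 10.6%.

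**Figure D1:**
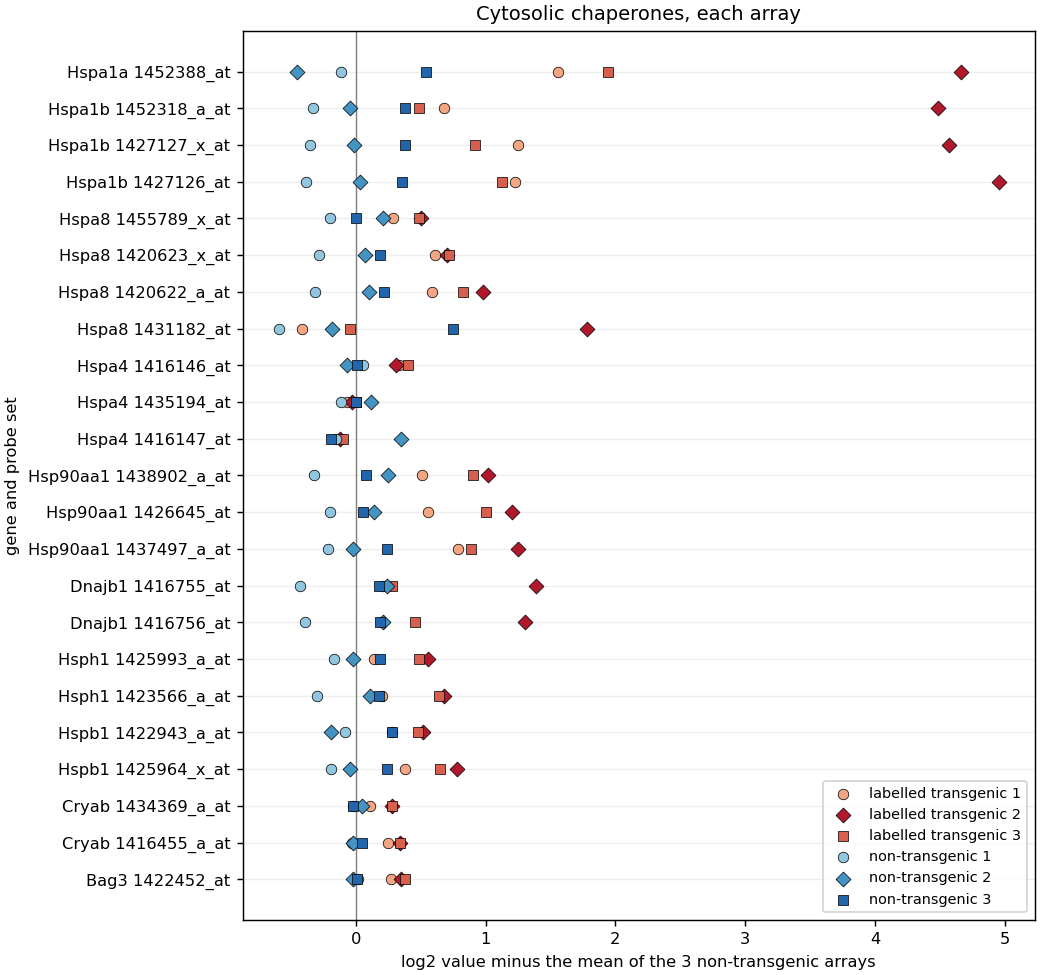
Log2 value of each tested chaperone probe set on each of the 6 arrays, shown as its distance from the mean of the 3 non-transgenic arrays. Points are single arrays, and colour and shape mark the group and array. Labelled transgenic array 2 stands apart from the other 5 for Hspa1a and Hspa1b, for both Dnajb1 probe sets and for the Hspa8 probe set 1431182_at, while the 3 labelled transgenic points of Bag3 and Cryab lie close together.

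Hspa1a and Hspa1b encode the stress-inducible HSP70 proteins, which are nearly identical and are used as reporters of an active heat shock response. They are neighbouring genes in the RefSeq gene table, followed by Hspa1l. Their upstream sequences are printed with those of Hspb1 and Hsph1, because these are the member genes whose 250 bases before the annotated start held a heat shock element. Sequences and starts are those of RefSeq on GRCm38.p6 and are written 5′ to 3′ on the gene's own strand. Capitals mark the letters of the 2-unit element, GAANNTTC or TTCNNGAA, where N is any base.

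Hspa1a, chr17:34972157-34972406, minus strand: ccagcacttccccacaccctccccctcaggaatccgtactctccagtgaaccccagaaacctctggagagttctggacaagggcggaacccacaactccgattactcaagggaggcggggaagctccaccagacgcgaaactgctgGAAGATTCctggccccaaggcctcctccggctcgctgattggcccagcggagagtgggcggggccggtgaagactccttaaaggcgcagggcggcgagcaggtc
Hspa1b, chr17:34959239-34959488, minus strand: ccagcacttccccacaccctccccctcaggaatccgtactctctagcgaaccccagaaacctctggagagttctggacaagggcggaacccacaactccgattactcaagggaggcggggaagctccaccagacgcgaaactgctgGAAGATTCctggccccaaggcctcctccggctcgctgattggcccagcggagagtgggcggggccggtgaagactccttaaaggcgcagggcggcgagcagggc
Hspb1, chr5:135887669-135887918, plus strand: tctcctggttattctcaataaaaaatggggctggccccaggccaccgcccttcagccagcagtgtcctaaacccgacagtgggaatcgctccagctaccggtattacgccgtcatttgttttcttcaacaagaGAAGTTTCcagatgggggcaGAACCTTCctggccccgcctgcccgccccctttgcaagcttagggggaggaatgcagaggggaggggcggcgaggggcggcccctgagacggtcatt
Hsph1, chr5:149636337-149636586, minus strand, first of its 2 annotated starts: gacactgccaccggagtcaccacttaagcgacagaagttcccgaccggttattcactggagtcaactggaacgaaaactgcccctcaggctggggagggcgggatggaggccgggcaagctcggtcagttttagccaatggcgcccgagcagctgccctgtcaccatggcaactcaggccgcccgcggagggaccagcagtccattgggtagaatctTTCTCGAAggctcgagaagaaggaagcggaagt

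The Hspa1a and Hspa1b windows were identical at 247 of 250 positions, or 98.8%, with no gap. Each held GAANNTTC from 104 to 97 bases before the start and the CCAAT box from 67 to 63 bases before it. The transcripts and probes of this pair were not compared here, so whether each probe set reads only the gene it is annotated to is uncertain. The Hspb1 window held GAANNTTC at 117 to 110 and at 97 to 90 bases before the start. Hsph1 held TTCNNGAA at 33 to 26 bases before its first start and at 54 to 47 before its second. The RefSeq gene table extends Hsph1 to base 149636498 of chromosome 5, so both starts and this match lie inside that extent. No match to GAANNTTC or TTCNNGAA was found in the windows of Hspa4, Bag3 or either start of Dnajb1.

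The RefSeq promoter table matched 7 of the 10 genes, with 9 starts, and Hspa8, Hsp90aa1 and Cryab were not matched. Over all 32851 windows of 250 bases, 6.69% held GAANNTTC, 7.17% held TTCNNGAA and 12.8% held either. Both motifs read the same on either strand, and they can overlap where the repeat goes on. The longer element of 3 alternating units was in 0.466% of all windows and in none of the 9 member windows. CCAAT, searched on both strands, was in 33.8% of all windows and in those of Hspa1a, Hspa1b, Hsph1 and the first start of Dnajb1. TATAAA, searched likewise, was in 12.4% of all windows and in no member window. A match is a string of letters, not a measured binding site.

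**Figure D2:**
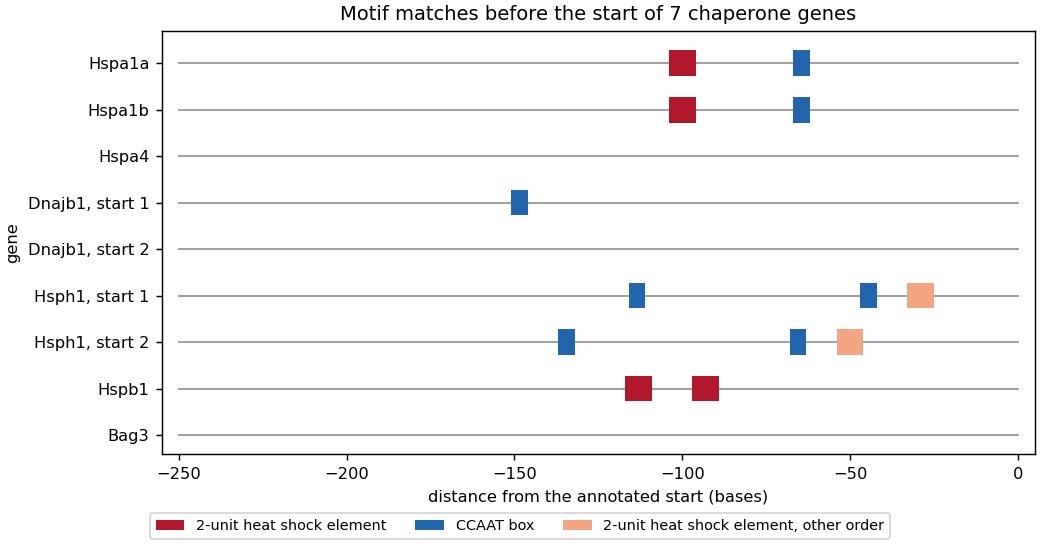
Position of motif matches in the 250 bases before each annotated start of the 7 member genes with a RefSeq promoter sequence. The x axis gives the distance from the start in bases, boxes are matches to scale, and grey lines are the searched windows. Hspa1a and Hspa1b have the same layout, Hspb1 has 2 matches to GAANNTTC, and Hspa4 and Bag3 have none.

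The Hspa1a probe set 1452388_at had log2 values of 5.27, 8.37 and 5.65 on labelled transgenic arrays 1 to 3 and of 3.60, 3.26 and 4.25 on non-transgenic arrays 1 to 3. All labelled transgenic values lay above all others, and array 2 lay far above both other labelled transgenic arrays. The log2 difference was 2.73 ± 0.82 (moderated SE, n = 3 per group, 95% interval 0.73 to 4.73), 6.62-fold, with an adjusted p of 0.2 in limma. Without labelled transgenic array 2 it was 1.76 ± 0.32, with an adjusted p of 0.191. The non-transgenic values lay near or below the brightness filter, where the background correction sets much of the value, so the size of this fold is uncertain.

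Hspa1b was read by 3 probe sets. On 1452318_a_at the log2 values were 7.30, 11.10 and 7.11 against 6.29, 6.58 and 7.0, in array order. The groups did not overlap, but labelled transgenic array 3 lay just above non-transgenic array 3, and array 2 stood alone. The log2 difference was 1.88 ± 1.06 (95% interval -0.70 to 4.46; adjusted p = 0.44, limma), and 0.58 without labelled transgenic array 2.

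Probe set 1427127_x_at of Hspa1b read 7.65, 10.97 and 7.32 against 6.05, 6.39 and 6.78, a log2 difference of 2.24 ± 0.95 (adjusted p = 0.319). Probe set 1427126_at read 6.21, 9.93 and 6.11 against 4.6, 5.01 and 5.34, a log2 difference of 2.43 ± 1.03 (adjusted p = 0.316). Both had the pattern of the first, with no overlap between groups and array 2 standing apart. Without that array their differences were 1.08 and 1.17, with adjusted p-values of 0.213 and 0.194. Leaving out this array lowered every Hspa1a and Hspa1b difference by over 1.5 times and turned none below 0.

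Hspa8 encodes the constitutive cytosolic HSP70, which also uncoats clathrin vesicles and delivers proteins to chaperone-mediated autophagy. Probe set 1420623_x_at had log2 values of 14.22, 14.31 and 14.33 on the labelled transgenic arrays and of 13.33, 13.68 and 13.80 on the non-transgenic ones. Its groups were well separated and the labelled transgenic values were close together. The log2 difference was 0.68 ± 0.13, 1.6-fold, with an adjusted p of 0.0989 in limma, and 0.67 without labelled transgenic array 2.

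Probe set 1420622_a_at of Hspa8 read 13.05, 13.44 and 13.29 against 12.15, 12.56 and 12.68, a log2 difference of 0.79 ± 0.17 (adjusted p = 0.118). Probe set 1455789_x_at read 14.36, 14.57 and 14.56 against 13.87, 14.28 and 14.07, a log2 difference of 0.42 ± 0.13 (adjusted p = 0.195). On both, every labelled transgenic value exceeded every non-transgenic one, and the gap was narrow on the second, between labelled transgenic array 1 and non-transgenic array 2. The fourth Hspa8 probe set, 1431182_at, read 6.07, 8.26 and 6.44 against 5.89, 6.30 and 7.23.

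The fourth probe set thus departed from the other Hspa8 probe sets. Its groups overlapped, its log2 difference was 0.45 ± 0.63 (adjusted p = 0.775), and without labelled transgenic array 2 the difference was -0.22. After centring each profile on its mean, the root mean square distance over the 6 arrays between this probe set and the Dnajb1 probe sets was 0.43 and 0.46, against 0.66 to 0.74 for the other Hspa8 probe sets. The Hspb1, Hsph1 and Hsp90aa1 probe sets lay at 0.65 to 0.68, so a distance of this size was not particular to Hspa8. What sequence the fourth Hspa8 probe set reads was not examined.

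Hsp90aa1 encodes HSP90 alpha, the inducible cytosolic HSP90, whose clients include kinases and steroid receptors. Its probe set 1437497_a_at had log2 values of 10.02, 10.48 and 10.12 on the labelled transgenic arrays and of 9.02, 9.21 and 9.47 on the non-transgenic ones. The gap between the groups was larger than the range of either group. The log2 difference was 0.97 ± 0.16 (95% interval 0.58 to 1.37), 1.96-fold, and the adjusted p of 0.078 was the lowest of the 23 chaperone probe sets tested.

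Probe set 1426645_at of Hsp90aa1 read 10.93, 11.57 and 11.37 against 10.17, 10.51 and 10.43, a log2 difference of 0.92 ± 0.18 (adjusted p = 0.107). Probe set 1438902_a_at read 11.36, 11.87 and 11.75 against 10.53, 11.10 and 10.93, a log2 difference of 0.81 ± 0.19 (adjusted p = 0.144). The groups did not overlap on either probe set, and array 1 was the lowest array of its group in both groups. Without labelled transgenic array 2 the 3 differences were 0.84, 0.78 and 0.70. The 2 further probe sets, 1441827_x_at and 1433251_at, lay below the brightness filter with differences of 0.07 and 0.01.

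**Figure D3:**
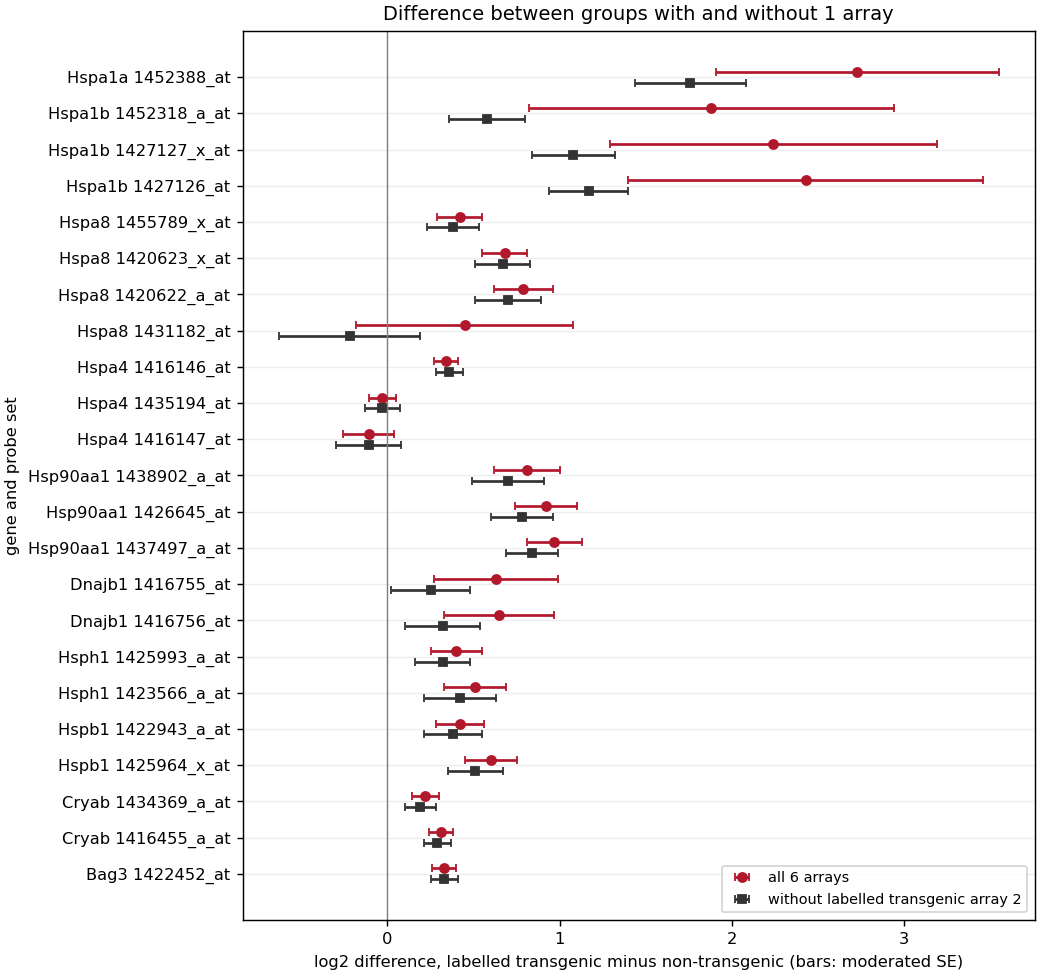
Log2 difference between labelled transgenic and non-transgenic arrays for each tested chaperone probe set, with the moderated SE as bars, over all 6 arrays (circles) and without labelled transgenic array 2 (squares). Hspa1b falls from between 1.88 and 2.43 to between 0.58 and 1.17 without that array, while Bag3 stays at 0.33.

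Dnajb1 encodes the HSP40 protein that pairs with the inducible HSP70. Probe set 1416755_at had log2 values of 8.71, 9.89 and 8.78 on the labelled transgenic arrays and of 8.07, 8.74 and 8.68 on the non-transgenic ones. Labelled transgenic array 2 stood above all others, and arrays 1 and 3 lay close to non-transgenic arrays 2 and 3, so the groups overlapped. The log2 difference was 0.63 ± 0.36 (95% interval -0.24 to 1.5; adjusted p = 0.442, limma), and 0.25 without array 2. Probe set 1416756_at read 8.15, 9.25 and 8.41 against 7.56, 8.16 and 8.14, again with overlap, and differed by 0.65 ± 0.32 (adjusted p = 0.376), or 0.32 without array 2.

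Hsph1, the HSP105 exchange factor and disaggregase partner of HSP70, was read by 2 probe sets. On 1423566_a_at the log2 values were 9.09, 9.57 and 9.53 against 8.59, 9.0 and 9.07. On 1425993_a_at they were 9.52, 9.94 and 9.87 against 9.21, 9.36 and 9.57. In both cases labelled transgenic array 1 was close to the highest non-transgenic value, just above it on the first probe set and just below it on the second. The log2 differences were 0.51 ± 0.18 and 0.40 ± 0.15, with adjusted p-values of 0.255 and 0.267 in limma, and 0.42 and 0.32 without labelled transgenic array 2.

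Hspa4 encodes another HSP110 family exchange factor, and its probe sets disagreed. Probe set 1416146_at had log2 values of 10.48, 10.46 and 10.55 against 10.21, 10.08 and 10.16, with a difference of 0.34 ± 0.07, 1.27-fold (adjusted p = 0.112). These groups were clearly apart, but those of the other probe sets overlapped. Probe set 1435194_at differed by -0.03 ± 0.08 (adjusted p = 0.878), and 1416147_at, at 7.16, 7.15 and 7.17 against 7.12, 7.62 and 7.08, by -0.11 ± 0.15 (adjusted p = 0.76). With fluidics station as a block these 2 differences were 0.08 and 0.04. The probe set 1440575_at lay below the filter at a difference of 0.00, and the mean of the gene's probe sets gave 0.07 for the gene.

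Bag3 joins HSP70 to small heat shock proteins and directs damaged Z-disc proteins to autophagy. Its single probe set, 1422452_at, had log2 values of 11.70, 11.78 and 11.81 on the labelled transgenic arrays and of 11.45, 11.41 and 11.44 on the non-transgenic ones. The range within each group was less than the gap between the groups. The log2 difference was 0.33 ± 0.07 (95% interval 0.17 to 0.49), 1.26-fold, with an adjusted p of 0.104 over all probe sets and of 0.0835 over genes, the lowest of the 10 genes. With trended variance in limma the adjusted p over genes was 0.0399, and over all alternatives it ranged from 0.0399 to 0.254.

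Hspb1, the small heat shock protein that guards actin filaments, was read by 2 probe sets. On 1425964_x_at the log2 values were 12.72, 13.12 and 12.99 against 12.15, 12.30 and 12.58. These did not overlap, and the difference was 0.60 ± 0.15, 1.52-fold (adjusted p = 0.152). On 1422943_a_at they were 13.07, 13.31 and 13.27 against 12.71, 12.60 and 13.07. Here labelled transgenic array 1 and non-transgenic array 3 met, and the difference was 0.42 ± 0.14 (adjusted p = 0.234).

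Cryab encodes alpha B-crystallin, which holds desmin and titin in the sarcomere. Probe set 1416455_a_at had log2 values of 14.39, 14.48 and 14.48 against 14.11, 14.12 and 14.19. The range within each group was smaller than the gap between them. The difference was 0.31 ± 0.07 (95% interval 0.14 to 0.47), 1.24-fold, with an adjusted p of 0.12 in limma. Probe set 1434369_a_at read 14.89, 15.06 and 15.06 against 14.76, 14.83 and 14.76 and differed by 0.22 ± 0.08 (adjusted p = 0.244). It too showed no overlap, though these values approach the highest in the table, 16.05. The third probe set, 1435837_at, lay below the filter at a difference of 0.01. Without labelled transgenic array 2 the differences of the tested Cryab and Hspb1 probe sets were 0.19 to 0.51.

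The chaperones thus differed in how far they depended on labelled transgenic array 2. For each probe set its value on this array was set against the mean of labelled transgenic arrays 1 and 3. The excess was 3.89, 3.77 and 3.48 for Hspa1b and 2.91 for Hspa1a, which ranked 5, 6, 8 and 10 of 22518 probe sets. It was 2.01 for the Hspa8 probe set 1431182_at, rank 14, and 1.14 and 0.98 for Dnajb1, ranks 50 and 89. For Bag3 it was 0.02, for the tested Cryab probe sets 0.04 and 0.08, and for those of Hspa4 between -0.05 and 0.00. The excess was 0.31 to 0.42 for Hsp90aa1, 0.24 and 0.26 for Hsph1, 0.14 and 0.27 for Hspb1 and 0.04 to 0.27 for the other 3 Hspa8 probe sets. The excess was thus graded, greatest for Hspa1b and Hspa1a and near 0 for Bag3, Cryab and Hspa4.

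Among the 4 probe sets ranked above Hspa1b was Eif2s3y, a Y-linked gene, at 6.13, and the other 3 had no single named gene. The Y-linked genes Kdm5d and Uty, at 3.72 and 3.11, ranked among the first 10. This array was the one labelled transgenic array with a male pattern, so within that group sex and array 2 cannot be told apart. The 2 non-transgenic arrays with a male pattern read 6.29 and 7.0 for Hspa1b on 1452318_a_at, and the one with a female pattern 6.58. Over all probe sets tested the array's median excess was -0.022, and 82 probe sets had an excess above 1, against 70 to 196 for the other arrays set against their own groups. Of the 23 chaperone probe sets, 16 had their highest value of the 6 on this array, against 11.3% of all probe sets tested. That share covers probe sets of both directions, while 21 of the 23 were higher in the labelled transgenic group. How much of the gap between these shares follows from the group difference was not tested. Tissue handling before RNA extraction is not recorded in the sources used here. With the Xist level of each array as a term in the fit, the log2 difference was 3.27 for Hspa1a and 2.48 to 2.99 for Hspa1b. The part of sex in the excess on array 2 was not tested.

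**Figure D4:**
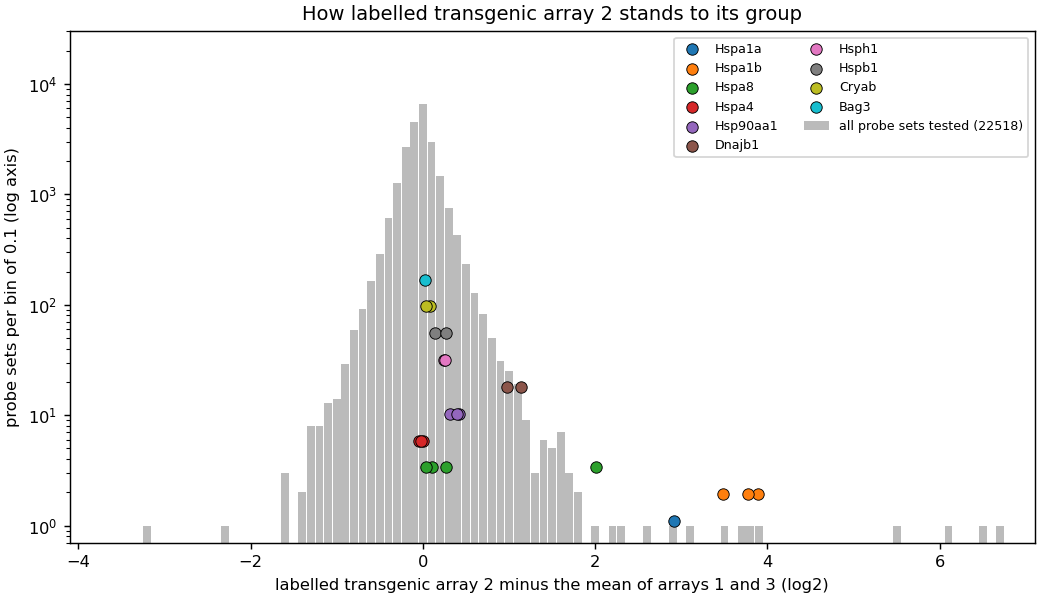
Distribution over all 22518 probe sets tested (grey bars, log axis) of the value on labelled transgenic array 2 minus the mean of labelled transgenic arrays 1 and 3. Coloured points mark the chaperone probe sets on the x axis, and their height only separates the genes. Hspa1a and Hspa1b lie between 2.91 and 3.89, and Bag3, Cryab and Hspa4 lie between -0.05 and 0.08.

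Without labelled transgenic array 2, the higher values did not disappear from the group. Of the 23 probe sets, 20 had a difference above 0. The share of all probe sets tested above 0 in this fit is not given here, and with all arrays it was 52.5%. The count of 20 therefore has no background from the same fit. At an unadjusted p under 0.05, 14 of the 23 were higher, against 8.50% of all probe sets tested. The median difference was 0.38, against 0.60 with all arrays. No probe set passed the adjusted threshold in that fit either, and the lowest adjusted p was 0.191, for Hspa1a and for 1437497_a_at of Hsp90aa1.

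Several differences were larger when fluidics station was a block, which leaves only non-transgenic array 1 to compare with the labelled transgenic group. The Dnajb1 differences were 1.06 and 1.04, against 0.63 and 0.65 without the block. The Hsph1 difference on 1423566_a_at was 0.81 against 0.51, and that of Hspa8 on 1431182_at 1.03 against 0.45. For Hsp90aa1 they were 1.13, 1.12 and 1.19, and for Bag3 0.32. No chaperone probe set passed the adjusted threshold with this block. The 3′ minus 5′ log2 signal of the actin control probe sets, a measure of RNA integrity, was 0.80 to 0.94 on labelled transgenic arrays and 0.97 to 1.05 on non-transgenic ones. The same measure for Gapdh overlapped between the groups, at 0.11 to 0.12 on labelled transgenic and 0.11 to 0.16 on non-transgenic arrays. The part of RNA integrity in the differences was not tested.

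The rest of the chaperone network was described by 11 lists of 122 genes, of which 107 lay above the filter. None passed the adjusted threshold in limma, 21 were higher and 1 was lower at an unadjusted p under 0.05, against 10.6% and 7.88% of all genes. Of the 107, 73 had a difference above 0, against 52.4% of all genes tested. Their median was 0.08, against 0.010 for all genes tested and 0.42 for the 10 chaperones. The shares of 10.6% higher and 7.88% lower over all genes also apply to each count of list or marker genes below. The lists were chosen with earlier results of these data known.

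**Figure D5:**
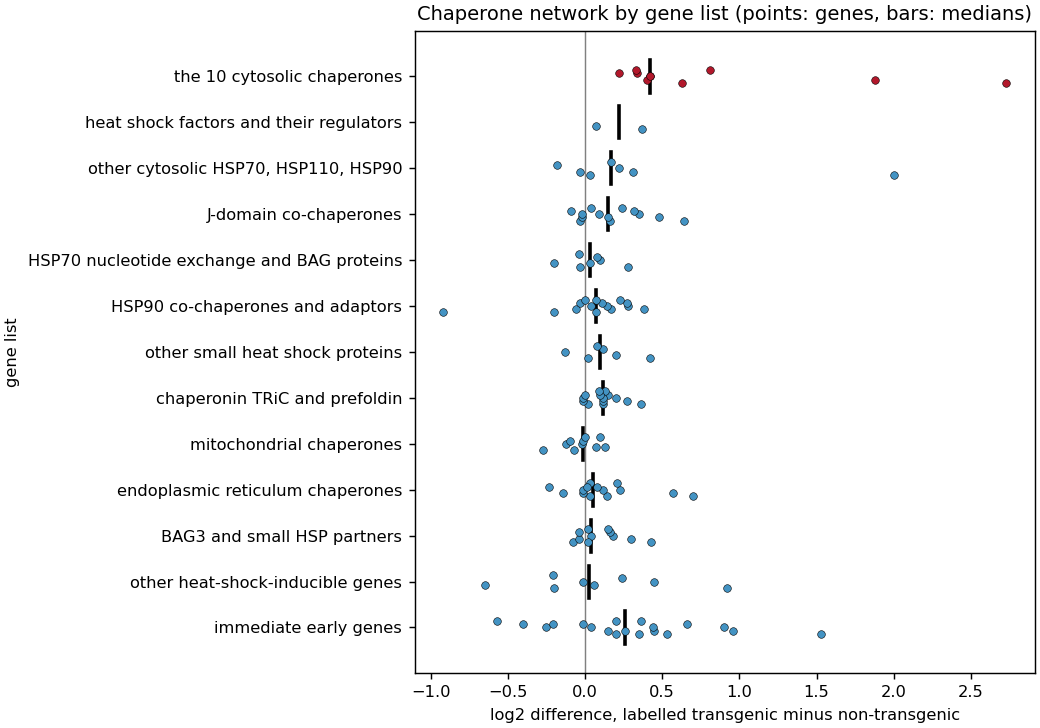
Log2 difference between labelled transgenic and non-transgenic arrays for each gene (points) of each list, with the list's median as a bar. The 10 chaperones lie between 0.22 and 2.73, while the medians of the 11 chaperone network lists lie between -0.01 and 0.22. The last line holds the immediate early genes, with a median of 0.26.

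On the list of other HSP70, HSP110 and HSP90 proteins 7 genes were tested, and none of these was an HSP90 gene. They were Hspa1l, Hspa2, Hspa4l, Hspa12a, Hspa12b, Hspa13 and Hspa14. Of the 7, 1 was higher at an unadjusted p under 0.05, and the median difference was 0.17. The highest was Hspa1l, the HSP70-like gene next to Hspa1a, at log2 values of 6.97, 7.64 and 7.84 on the labelled transgenic arrays and of 4.92, 5.57 and 5.97 on the non-transgenic ones. All labelled transgenic values lay well above the others, and array 2 was between arrays 1 and 3, unlike in Hspa1a and Hspa1b. The difference was 2.0 ± 0.33, with an adjusted p of 0.0593 in limma, and 1.92 without labelled transgenic array 2. Hspa2, which is best known from the testis, differed by 0.31, and by 0.12 with station as a block.

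The transcription factors that control the response gave few values above the filter. Of 5 heat shock factors and regulators with a probe set, 3 lay below it, namely Hsf2, Hsf2bp and Hsf5. The rest were Hsf4 at a difference of 0.37 and the HSF1-binding protein Hsbp1 at 0.07. Hsf1 itself was not among the 5, so no value is given for it. Hsf4 was -0.15 without non-transgenic array 1 and 1.42 with station as a block. Neither was higher or lower at an unadjusted p under 0.05.

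Among 13 J-domain co-chaperones 4 were higher at an unadjusted p under 0.05, with a median of 0.15. Dnaja1, an HSP40 that helps mature HSP90 clients, read 10.33, 10.86 and 10.44 against 9.58, 10.11 and 10.03 and differed by 0.64 ± 0.19 (adjusted p = 0.173). Its groups did not overlap, and its array 2 was the highest of the 6. Dnajc2, a ribosome-bound J-domain protein, differed by 0.47 (adjusted p = 0.221). With station as a block the difference was 0.97 for Dnaja1 and 0.24 for Dnajc2. Of 7 exchange factors and BAG proteins 1 was higher, Bag1, at 0.28 ± 0.07 (adjusted p = 0.122), while Bag4 differed by -0.20. The sign for Bag4 turned with station as a block, to 0.11, and without non-transgenic array 2, to 0.17.

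The 15 HSP90 co-chaperones had a median of 0.07, and 4 were higher at an unadjusted p under 0.05. Ahsa2, an activator of the HSP90 ATPase, differed by 0.38 (adjusted p = 0.2). Fkbp5, the immunophilin that restrains the glucocorticoid receptor and is induced by glucocorticoids, differed by -0.92 ± 0.85, and by 0.69 with station as a block. Of 6 further small heat shock proteins 2 were higher, Hspb8, the partner of Bag3, at 0.42 ± 0.12 (adjusted p = 0.15) and the cardiac HSP20 gene Hspb6 at 0.20 ± 0.08 (adjusted p = 0.262).

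The 11 Z-disc and autophagy partners of Bag3 and small heat shock proteins had a median of 0.04, and 2 were higher at an unadjusted p under 0.05. These were Flnc, filamin C, a client of Bag3, at 0.43 ± 0.12 (adjusted p = 0.146), and the intermediate filament gene Des at 0.30 ± 0.07 (adjusted p = 0.106). Of 14 subunits of the TRiC chaperonin and prefoldin, which fold actin and tubulin, 3 were higher and the median was 0.12. Pfdn1 differed by 0.36 ± 0.08 (adjusted p = 0.101) and Cct8 by 0.27. The lists for other compartments gave medians close to 0.

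Among 10 mitochondrial chaperones and proteases none was higher and 1 was lower at an unadjusted p under 0.05, with a median of -0.01. That gene was Dnaja3, the mitochondrial HSP40, at -0.27 ± 0.09 (adjusted p = 0.181), and Lonp1 differed by 0.13. The 14 chaperones of the endoplasmic reticulum had a median of 0.06, and 2 were higher, against 10.6% of all genes. Their differences ranged from -0.23 to 0.70, and 10 of the 14 were above 0, against 52.4% of all genes. The 2 higher genes were Creld2, at 0.70 ± 0.11 (adjusted p = 0.0592), and Manf, at 0.57 ± 0.11 (adjusted p = 0.0849).

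Of 8 genes on a list of other heat-inducible genes 2 were higher at an unadjusted p under 0.05, with a median of 0.02. The list included Cirbp, at 0.06, which is named for its induction by cold, so not every gene on it is heat-inducible. Ier5, a target and regulator of HSF1, read 8.97, 9.75 and 9.31 against 8.24, 8.65 and 8.39 and differed by 0.92 ± 0.21 (adjusted p = 0.108). No values overlapped, and array 2 was the highest of the 6. The metallothionein gene Mt1 differed by -0.65, and by 0.12 with station as a block.

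Immediate early genes, which respond within minutes to a stimulus, were described beside the chaperones. Of 19 tested 5 were higher at an unadjusted p under 0.05, with a median of 0.26. One passed the adjusted threshold, Ccn1, a matricellular gene, at 0.90 ± 0.11 (adjusted p = 0.0458), and it no longer passed when any array except labelled transgenic array 1 was left out. Its adjusted p ranged from 0.0207 to 0.189 over the alternatives. Egr1 differed by 1.53 ± 0.37 (adjusted p = 0.119), and by 0.70 with station as a block. The log2 of the summed level of the list was 13.23, 13.29 and 13.12 on the labelled transgenic arrays and 12.85, 12.95 and 13.22 on the non-transgenic ones, so the groups overlapped and labelled transgenic array 2 was the highest by a small margin. The part of these genes in the chaperone differences was not tested.

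Markers of other cell types also differed between the groups. Of 11 fibroblast markers 9 were higher at an unadjusted p under 0.05, with a median of 0.68, and the log2 of their summed level was 15.53 to 15.66 on labelled transgenic and 15.02 to 15.33 on non-transgenic arrays. Of 12 macrophage markers 10 were higher, with a median of 0.54 and summed levels of 12.94 to 13.18 against 12.51 to 12.64. The 16 cardiomyocyte markers had a median of 0.01, with summed levels of 19.00 to 19.02 against 19.00 to 19.04. At an unadjusted p under 0.05, 2 of them, 1 endothelial and 3 smooth muscle and pericyte markers were lower, and none was higher. Medians were -0.05 for 10 endothelial, -0.18 for 9 smooth muscle and pericyte, -0.20 for 3 erythroid, 0.23 for 5 neutrophil and lymphocyte and 0.02 for 3 skeletal muscle markers. Of 6 atrial markers 3 lay below the filter, Myl7, Sln and Bmp10. The rest, which include Nppa, a gene of stressed ventricle too, had a median of 0.69. Nppa alone of these passed the adjusted threshold, at 2.19 ± 0.17 (adjusted p = 0.015, limma over genes), against 0.563% of all genes. All 4 measured adipocyte markers lay below the filter. The part of fibroblasts and macrophages in the chaperone differences was not tested.

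The genes most like 3 of the chaperones were ranked by root mean square distance between profiles of the 6 arrays, each centred on its mean. Nearest to Hspa1a were Hspa1b at 0.596, the cadherin gene Cdh4 at 0.833 and the natriuretic peptide gene Nppa at 0.993, where the SD of Hspa1a over the arrays was 1.87. Nearest to Hspa1b, with an SD of 1.77, were Hspa1a at 0.596, Meig1 at 1.043 and Cdh4 at 1.045. For each of this pair the other was thus the nearest gene. The distance also grows where a gene changes by less, so it does not compare the shape of profiles alone. For Cryab, with an SD of 0.14, Ankrd40, Strn3 and Wwc2 were nearest at 0.031, 0.032 and 0.033.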

How the data were processed

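Total RNA of mouse heart tissue was hybridised to 6 Affymetrix arrays of 1 colour. The deposited values are log2 expression values that the authors made with GCRMA, a background correction and normalization method, per the submitters' processing notes. Its version is not stated there. No further normalization was applied. The deposited instrument text records, which hold no expression values, gave fluidics station and scan order. Of 45101 probe sets, 64 controls were left out. The platform annotation gave 1 gene to 34945, several to 932 and none to 9160, and no member was among those with several. Probe sets with a mean above log2 3.285 entered a 2-sided limma fit (version 3.58.1, R 4.3.3, lmFit with eBayes). Its p-values were adjusted over all 22518 by Benjamini-Hochberg, and 0.05 was the threshold throughout. The fit was repeated on 11016 genes, the brightest probe set standing for each; adjusted p-values of genes on the lists come from that fit. Values are differences ± moderated SE. The fit was tested on simulated data. The number of arrays limits the precision.

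The members and lists were chosen with earlier results of these data known. Besides the members, the text names for each list every gene that passed or else the 2 with the largest difference, and the 3 genes most like Hspa1a, Hspa1b and Cryab. Marker lists are given by counts, medians and summed levels, and Egr1 and the genes singled out for labelled transgenic array 2 or the markers were chosen after their values were seen. Alternatives were the filter, normalization, variance model, array weights, replicate number, fluidics station or Xist level as a term, each array left out and averaging over probe sets of a gene. A fit to the 4 arrays of station 2 alone was chosen after seeing the data. Genome sequence beyond the RefSeq promoters was not used here.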

Additional observations from a re-analysis of the deposited data

How the results depend on the processing

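No chaperone probe set and no chaperone gene passed the adjusted threshold in most alternatives. With the stricter filter of a mean above log2 6, 2 probe sets passed, Hspa8 1420623_x_at (adjusted p = 0.0499; 0.0499 to 0.282 over its alternatives) and Hsp90aa1 1437497_a_at (0.0374; 0.0374 to 0.245). With trended variance 1 chaperone gene passed, Bag3. Over all genes, 180 of 11016 passed with that setting, against 62 in the main fit. With the stricter filter 191 of 7902 genes passed, and with array weights 139 of 11016. Genes of the chaperone network lists that passed numbered 2 with the stricter filter (Creld2 and Hspa1l), 3 with trended variance (Des, Creld2 and Hspa1l) and 1 with array weights (Creld2), against 0. Over all probe sets, 49 passed, against 15 with no filter, 302 with the stricter one, 108 with trended variance, 2 with station as a block, 0 with the Xist level as a term and 0 to 75 with 1 array left out. The cause was not tested.

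Same-numbered arrays of the 2 groups shared only a number: their deviations from the group means correlated at -0.08, -0.17 and -0.01. With the replicate block, 0 chaperone probe sets, 0 chaperone genes and 0 network genes passed, as without it, and 0 of all probe sets did.

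With station as a block, and equally in the arrays of station 2 alone, signs turned for Hspa4 1435194_at (0.080) and 1416147_at (0.040), Bag4 (0.107), Fkbp5 (0.692) and Mt1 (0.119). With 1 array left out, differences ranged from -0.221 to 0.876 for Hspa8 1431182_at, from -0.092 to 0.025 and from -0.212 to 0.060 for those Hspa4 probe sets, from -0.417 to 0.175 for Bag4 and from -0.155 to 0.763 for Hsf4.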
